A study of Mus musculus with 21 samples.

Results

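The insulin-like growth factor (IGF) genes described here are the ligand gene Igf1, the receptor gene Igf1r and the binding protein genes Igfbp2, Igfbp3, Igfbp4, Igfbp5, Igfbp6 and Igfbp7, taken by gene symbol from RNA sequencing tables of mouse fibroblasts and of fibroblasts under reprogramming. They are 8 genes of the 12404 listed in the 3 tables together. All 8 are listed in the fibroblast table (11152 genes), and 7 are listed in each reprogramming table (10723 genes without vitamin C, 12021 with it), where Igf1 does not appear. In reprogramming cells, Igfbp7, Igfbp6, Igfbp5 and Igfbp3 were higher in every library that carried Tet1CD in medium with vitamin C, while Igf1r and Igfbp2 did not pass the test in any model of the Tet1CD effect.

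IGF1 and IGF2 are secreted growth factors that signal for growth and survival through the receptor tyrosine kinase encoded by Igf1r, which feeds the PI3K and AKT pathway. The binding proteins IGFBP2 to IGFBP6 hold the ligands with high affinity outside the cell, extend their life and limit or deliver them to the receptor, and secreted proteases release the ligands by cutting the binding proteins. IGFBP7 is a related secreted protein that binds IGFs weakly. Cultured fibroblasts make most of these proteins, and several of them are known parts of the secretome of senescent fibroblasts.

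The libraries came from mouse embryonic fibroblasts (MEFs) of the ICR strain, derived from embryos of 13.5 days and used at passage 2. All cells had received retroviruses, with an infection of 48 hours. The MEF table holds 1 library each of the control (labelled Flag+shLuc, an epitope tag vector with a hairpin against luciferase), Dnmt1, shDnmt1, shp53, shp53+shDnmt1 and Tet1-CD, and 1 library labelled 5C with Flag+shLuc, a label that no source used here explains. The column header of that library names day 4, and those of the other MEF libraries are described by construct only. Each SKOM table holds cells given Oct4, Klf4, c-Myc and Sox2 by retrovirus and harvested at day 5, grown with leukaemia inhibitory factor, either lacking vitamin C (Vc-) or supplied with it (Vc+). Its 7 libraries are the Flag+shLuc control, Dnmt1, shDnmt1, shp53+shDnmt1, Tet1CD, Tet1CD+Dnmt1 (spelled Tet1CD+Dmnt1 in the titles) and Tet1CD+shDnmt1. The enzyme DNMT1 copies DNA methylation onto newly made strands, and shDnmt1 is a hairpin that targets its mRNA. Tet1CD is named after TET1, a dioxygenase that acts on methylated cytosine, and shp53 targets the p53 gene Trp53. Each combination was sequenced once per table, from bulk cultures of retrovirally infected cells, and no label says that libraries came from separate cultures, so a p-value here measures only the spread between these libraries.

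The promoter sequences of the 4 genes that rose with Tet1CD in Vc+ cells are shown beside that of Igf1r, which did not pass that test, so that their CG dinucleotides, where most mammalian DNA methylation lies, can be seen. Methylation was not measured in these files. Each sequence is the 250 bases before the gene's RefSeq start (GRCm38.p6, the assembly of mm10), read 5′ to 3′ on the gene's strand, with every CG in capitals.
Igfbp7: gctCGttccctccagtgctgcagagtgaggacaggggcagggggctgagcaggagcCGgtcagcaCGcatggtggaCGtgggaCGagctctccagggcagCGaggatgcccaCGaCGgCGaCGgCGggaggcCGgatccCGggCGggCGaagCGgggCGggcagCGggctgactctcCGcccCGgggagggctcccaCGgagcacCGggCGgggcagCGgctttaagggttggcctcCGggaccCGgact
Igfbp6: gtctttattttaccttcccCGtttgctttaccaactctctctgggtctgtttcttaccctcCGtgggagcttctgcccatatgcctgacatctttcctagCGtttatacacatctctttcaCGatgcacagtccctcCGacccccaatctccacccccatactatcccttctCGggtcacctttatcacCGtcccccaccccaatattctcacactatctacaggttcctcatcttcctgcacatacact
Igfbp5: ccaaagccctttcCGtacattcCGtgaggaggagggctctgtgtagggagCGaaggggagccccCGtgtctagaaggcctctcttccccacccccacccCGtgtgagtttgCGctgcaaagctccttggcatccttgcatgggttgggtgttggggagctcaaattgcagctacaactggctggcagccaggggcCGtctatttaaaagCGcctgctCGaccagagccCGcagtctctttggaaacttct
Igfbp3: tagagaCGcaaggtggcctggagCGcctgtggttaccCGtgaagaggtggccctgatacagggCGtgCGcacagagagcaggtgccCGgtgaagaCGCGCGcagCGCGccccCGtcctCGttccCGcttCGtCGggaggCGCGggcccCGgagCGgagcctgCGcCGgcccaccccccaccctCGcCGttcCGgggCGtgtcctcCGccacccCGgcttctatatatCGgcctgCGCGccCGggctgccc
Igf1r: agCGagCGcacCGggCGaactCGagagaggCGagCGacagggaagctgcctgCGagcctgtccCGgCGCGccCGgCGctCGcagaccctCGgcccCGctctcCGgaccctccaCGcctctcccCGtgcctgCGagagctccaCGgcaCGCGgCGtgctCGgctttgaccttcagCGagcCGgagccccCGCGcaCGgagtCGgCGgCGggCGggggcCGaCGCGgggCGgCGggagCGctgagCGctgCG
The windows are chr5:77408046-77408295 on the minus strand for Igfbp7, chr15:102143936-102144185 on the plus strand for Igfbp6, chr1:72874866-72875115 on the minus strand for Igfbp5, chr11:7213924-7214173 on the minus strand for Igfbp3 and chr7:67952007-67952256 on the plus strand for Igf1r. The start of the deposited transcript lies at the RefSeq start for Igfbp7, 26 bp downstream of it for Igfbp3, 176 bp downstream for Igfbp6, 602 bp downstream for Igf1r and 19 bp upstream for Igfbp5. The windows hold 26 CG in Igfbp7, 7 in Igfbp6, 10 in Igfbp5, 32 in Igfbp3 and 42 in Igf1r, against a median of 6 over 32851 RefSeq promoters of the same length. As many CG or more were found in 9.59% of those promoters for Igfbp7, 46.3% for Igfbp6, 37.8% for Igfbp5, 4.58% for Igfbp3 and 0.86% for Igf1r. All 5 windows hold more CG than that median. Of the other motifs searched on both strands, GGGCGG occurs 4 times in Igfbp7 and 2 times in Igf1r and is held by 32.7% of promoters, TATAAA occurs 1 time in Igfbp6 and is held by 12.4%, and CACGTG is in none of the 5 and is held by 6% of promoters. GGGCGG contains a CG, and CACGTG does too. The remaining members have 22 CG (Igfbp4), 14 (Igfbp2) and 5 (Igf1).

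The members are spread over 6 chromosomes of mm10. Igfbp2 (ENSMUSG00000039323, chromosome 1, 72824503 to 72852474, plus strand, 4 exons in the deposited transcript) and Igfbp5 (ENSMUSG00000026185, chromosome 1, 72857932 to 72874884, minus strand, 4 exons) lie tail to tail with 5457 bp between them. Igfbp3 (ENSMUSG00000020427, 7206086 to 7213897, minus strand, 5 exons) and Igfbp4 (ENSMUSG00000017493, 99041244 to 99054392, plus strand, 4 exons) are far apart on chromosome 11. Igfbp6 (ENSMUSG00000023046) is on chromosome 15 at 102144362 to 102149511 (plus strand, 4 exons) and Igfbp7 (ENSMUSG00000036256) on chromosome 5 at 77349240 to 77408045 (minus strand, 6 exons). Igf1 (ENSMUSG00000020053) is on chromosome 10 at 87859068 to 87937042 (plus strand, 4 exons) and Igf1r (ENSMUSG00000005533) on chromosome 7 at 67952859 to 68226780 (plus strand, 21 exons).

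The deposited values are whole numbers that were normalized within each table, with a median gene at 208 in 6 MEF libraries and 203 in the 5C library, 180 in Vc- and 226 in Vc+ libraries, so sequencing depth is unknown and levels of different tables are not on a common scale. Every gene of a table has at least 32 in at least 2 of its libraries. The hairpin targets were lower than in the control of the same table wherever a hairpin was named, to differing degrees. Trp53 was 157 and 186 in the MEF libraries with shp53 against 888 to 1008 in the others and 647 in the 5C library, and 453 and 621 against controls of 873 and 1194 in Vc- and Vc+ cells. Dnmt1 was 208 with shDnmt1 against 957 in the MEF control, but 410 with shp53+shDnmt1 and 1622 with shp53. In SKOM cells it was 527 and 1154 with shDnmt1, and 726 and 1319 with shp53+shDnmt1, against 984 and 2346 in the Vc- and Vc+ controls. The libraries labelled Dnmt1 had 975, 1001 and 2381, close to those controls, so the label is not borne out by the values and they are called libraries labelled Dnmt1. Dnmt1 was also low in some Tet1CD libraries that carry no Dnmt1 hairpin, at 458 in MEFs and at 1080 (Tet1CD) and 1224 (Tet1CD+Dnmt1) in Vc+ cells, but at 967 and 778 in Vc- cells. The part of this in the Tet1CD results was not tested. Tet1 was 2140 to 2632 with Tet1CD against 11 to 19 without it in Vc- cells, and 2503 to 3129 against 41 to 88 in Vc+ cells; resident and construct transcripts are not separated. Fibroblast markers were high in all tables, with 12, 11 and 12 of 12 listed in MEF, Vc- and Vc+ cells. With Tet1CD, 5 of 11 rose and 0 fell in the additive SKOM model described below, where 20.3% of all genes rose and 24.9% fell. The median was 0.20 on the log2 scale, against -0.04 over all genes. In Vc- cells 2 of 11 rose and 1 fell, where 7.25% and 7.38% of all genes did (median 0.09 against -0.01). In Vc+ cells 5 of 12 rose and 1 fell, where 20.7% and 23.6% of all genes did (median 0.30 against -0.07). The fibroblast marker sum was 41731 to 48016 without and 48252 to 49582 with Tet1CD in Vc- cells. In Vc+ cells it was 39237 to 63548 against 54744 to 63370. Marker lists of other cells also moved with Tet1CD. Of the macrophage markers, 3 of 10 were listed in Vc- and 4 in Vc+ cells. Their summed value was 258 to 337 without and 541 to 633 with Tet1CD in Vc- cells. In Vc+ cells it was 293 to 369 against 1952 to 2614. Most of each sum was Laptm5, at 425 to 529 with Tet1CD in Vc- and 1578 to 2156 in Vc+ cells. Ptprc, the defining leukocyte marker, was 0 to 13 without and 36 to 44 with Tet1CD in Vc- cells. In Vc+ cells it was 0 to 27 against 45 to 50. Ptprc met the limit of 32 in 2 libraries only through those with Tet1CD, so this difference was partly fixed by that limit. The skeletal muscle markers (1 and 2 of 6 listed) ran from 20 to 42 against 51 to 62 and from 48 to 74 against 278 to 305, and the neural and glial markers (4 and 5 of 6 listed) from 2400 to 2583 against 2825 to 3059 and from 2704 to 3084 against 4359 to 5668. The epithelial markers (5 and 6 of 9 listed) were lower with Tet1CD, 286 to 331 against 384 to 564 and 555 to 590 against 799 to 1538. In Vc+ cells the single listed pluripotency marker of 8 was 2 to 5 with Tet1CD against 36 to 88 without. The single listed endothelial marker of 6 was 386 to 400 against 544 to 634. Both fell by the test. The pluripotency marker met the limit of 32 only through libraries without Tet1CD, so its fall was partly fixed by that limit. In Vc- cells no pluripotency marker was listed, and the endothelial marker overlapped (284 to 331 against 297 to 317). The part of these cells or programmes in the results below was not tested, and in bulk libraries a change in the share of cells of a type and a change of RNA per cell cannot be told apart.

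**Figure D1:**
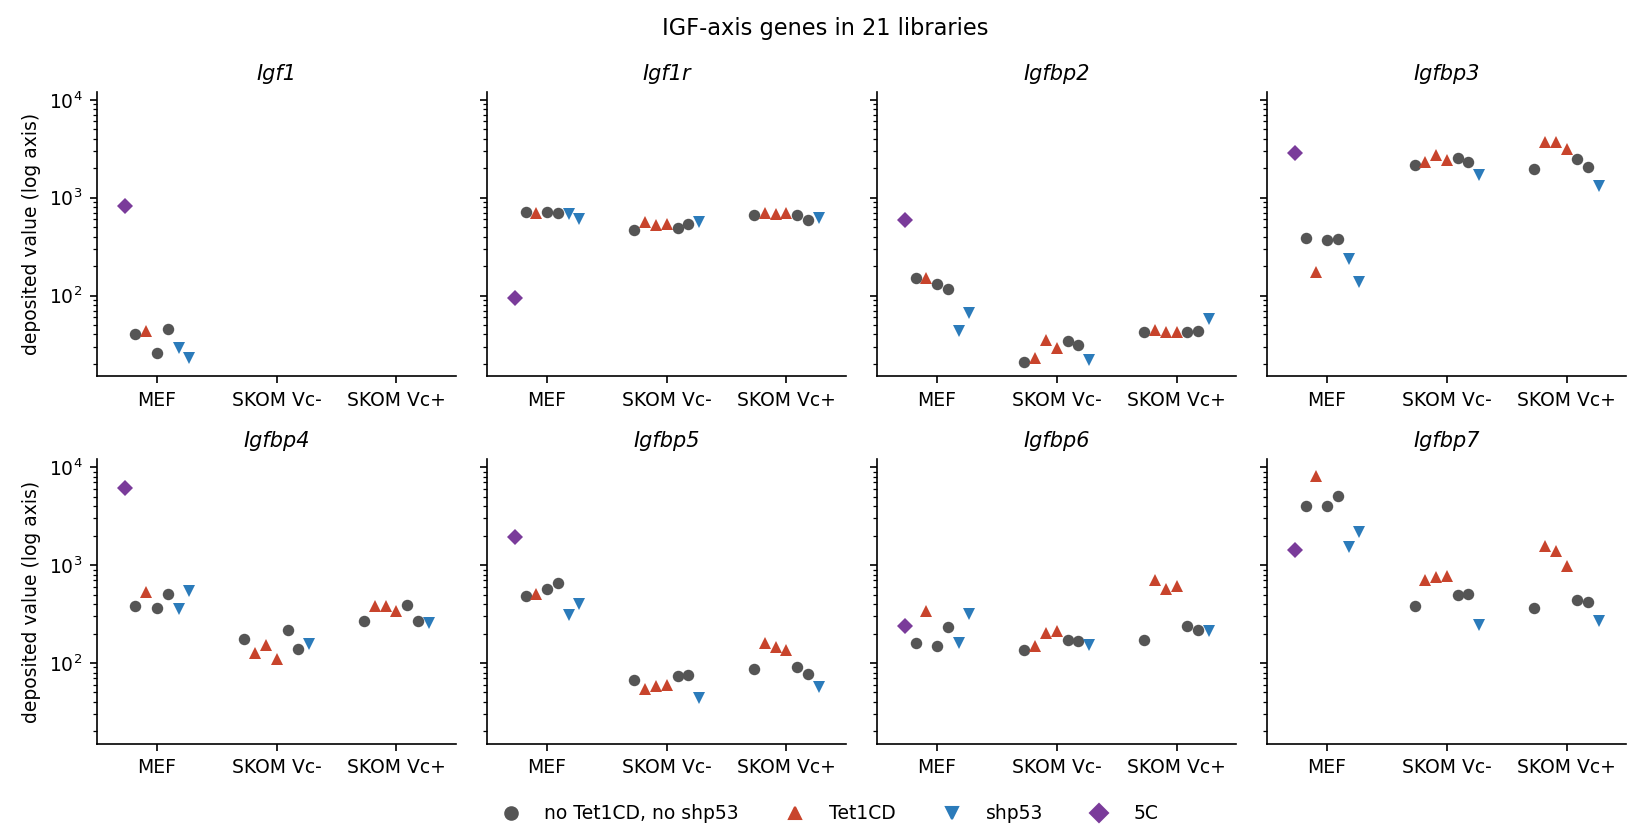
Deposited value (log axis) of the 8 genes in the 21 libraries, in 3 columns for MEF, SKOM Vc- and SKOM Vc+ libraries; each point is 1 library, and triangles pointing up mark every library with Tet1CD, triangles pointing down those with shp53, the diamond the 5C library and circles the rest. The Vc+ libraries with Tet1CD lie above the others for Igfbp3, Igfbp5, Igfbp6 and Igfbp7, the 5C library lies far from the other MEF libraries for Igf1, Igf1r and Igfbp4, and Igf1 has points in the MEF column only.

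The binding protein with the highest level differed between MEFs and SKOM cells. To compare genes, each value was divided by the length of the deposited transcript in kb, on the assumption that values scale with length as read counts do. In the 6 MEF libraries without the 5C library, Igfbp7 had a median level of 3326 per kb (1288 to 6704), above every other member in each library range. Below it came Igfbp6 (177, range 135 to 307), Igfbp3 (124.5, 56.6 to 161.5), Igfbp4 (115.8, 92.7 to 141.0), Igfbp2 (94.5, 32.9 to 116.3), Igfbp5 (82.3, 50.9 to 109.7) and Igf1r (61.5, 52.4 to 62.8), whose neighbouring ranges overlap, and Igf1 (4.9, 3.3 to 6.5), which lies below all of them. In Vc- cells Igfbp3 led with a level of 949 per kb (710 to 1114), followed by Igfbp7 (422, 202 to 645) and Igfbp6 (149, 123 to 190), whose ranges do not overlap with their neighbours. Igf1r (47.2, 40.5 to 49.5) and Igfbp4 (40.2, 29.0 to 56.1) overlap, and Igfbp2 (22.2, 16.1 to 26.8) and Igfbp5 (9.8, 7.3 to 12.5) close the order. In Vc+ cells Igfbp3 (1033, 549 to 1537), Igfbp7 (364, 225 to 1317) and Igfbp6 (213, 155 to 630) overlap one after the other, Igfbp4 (88.5, 67.6 to 102.6) stands above Igf1r (58.8, 51.2 to 61.4), and Igfbp2 (32.1, 32.1 to 43.6) stands above Igfbp5 (15.0, 9.5 to 26.6).

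Binding protein genes rose with Tet1CD in SKOM cells, and the receptor gene did not pass the test. In the additive model over the 14 SKOM libraries, with terms for the medium and each construct, Igfbp7 rose by 1.18 ± 0.17 (SE) on the log2(value + 5) scale, a 2.27-fold change (limma, Benjamini-Hochberg adjusted p = 0.000461). Igfbp6, whose protein prefers IGF2 as its ligand, rose by 0.90 ± 0.22 (adjusted p = 0.00689), and Igfbp3, the main IGF carrier of serum, rose by 0.40 ± 0.13 (adjusted p = 0.0252). These are 3 of the 7 genes tested, where 20.3% of all 10711 genes rose and 24.9% fell; no member fell. The median change of the 7 was 0.23 against -0.04 over all genes. The other 4 did not pass the test: Igfbp5 at 0.23 ± 0.18, Igf1r at 0.12 ± 0.06, Igfbp2 at 0.02 ± 0.16 and Igfbp4 at -0.08 ± 0.14. The change of Igfbp3 lost its call without any of 5 Vc+ libraries, at 0.33 without the library labelled Dnmt1, 0.35 without Tet1CD, 0.32 without Tet1CD+Dnmt1, 0.37 without Tet1CD+shDnmt1 and 0.37 without shDnmt1.

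In the Vc+ table alone the response was larger. Igfbp7 had values of 437 in the control, 362 in the library labelled Dnmt1, 416 with shDnmt1 and 270 with shp53+shDnmt1, and of 1580 with Tet1CD, 1401 with Tet1CD+Dnmt1 and 985 with Tet1CD+shDnmt1. The 3 libraries with Tet1CD all stand above the 4 without it, and the change was 1.67 ± 0.15, or 3.18-fold (adjusted p = 0.000832). Igfbp6 went from 237, 172, 216 and 214 in the same 4 libraries to 701, 568 and 613, again without overlap, a change of 1.57 ± 0.09 or 2.98-fold (adjusted p = 0.000273). Igfbp5, whose protein binds extracellular matrix, had 90, 87, 78 and 57 without Tet1CD. With it the values were 160, 147 and 137, all higher, and the change was 0.77 ± 0.11 (adjusted p = 0.00325). Igfbp3 had 2501, 1962, 2044 and 1328 without and 3721, 3721 and 3168 with Tet1CD, also without overlap, a change of 0.71 ± 0.10 (adjusted p = 0.00291). These 4 of 7 genes rose and none fell, where 20.7% of the 12021 genes of the table rose and 23.6% fell.

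The remaining 3 genes did not pass in Vc+ cells. Igfbp4, which binds IGFs and is cut by the protease PAPP-A, had 393, 270, 271 and 259 without Tet1CD and 381, 381 and 339 with it, where the control is higher than all 3 (0.25 ± 0.13, adjusted p = 0.146). Igf1r had 671, 663, 584 and 618 without and 695, 679 and 700 with Tet1CD. The 3 are the highest values of the table, by a margin smaller than the spread of the other 4 (0.11 ± 0.09, adjusted p = 0.35). Igfbp2 had 42, 42, 43 and 57 without and 44, 42 and 42 with Tet1CD (0.01 ± 0.16, adjusted p = 0.964). Its values differ little except for the 57 of the shp53+shDnmt1 library.

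In the Vc- table alone, 1 of the 7 genes rose and none fell, where 7.25% of 10722 genes rose and 7.38% fell. Igfbp7 had 491 in the control, 386 in the library labelled Dnmt1, 506 with shDnmt1 and 242 with shp53+shDnmt1, and 711 with Tet1CD, 748 with Tet1CD+Dnmt1 and 774 with Tet1CD+shDnmt1. The 2 groups do not overlap, and the change was 0.69 ± 0.09, or 1.62-fold (limma, adjusted p = 0.00982). This call was lost, with 1 residual degree of freedom, without the library labelled Dnmt1 or without Tet1CD+Dnmt1 (0.57 each) and without shDnmt1 or Tet1CD+shDnmt1 (0.74 each). Igfbp6 had 171, 137, 166 and 153 without and 149, 204 and 211 with Tet1CD, which overlap (0.23 ± 0.14, adjusted p = 0.294). It passed, at 0.45, without the Tet1CD library and without the control. Igfbp5 had 73, 67, 75 and 44 without and 54, 58 and 59 with Tet1CD (-0.31 ± 0.12, adjusted p = 0.12), and Igfbp4 had 215, 178, 140 and 156 without and 128, 154 and 111 with it (-0.42 ± 0.11, adjusted p = 0.0539). Igfbp4 passed the test as a decrease of the same size with genes of a mean of at least 50 and without a term for the label Dnmt1. Igfbp3 had 2542, 2137, 2297 and 1719 without and 2297, 2698 and 2446 with Tet1CD, which overlap (0.09 ± 0.09, adjusted p = 0.515). Igf1r (488, 462, 539 and 565 against 564, 520 and 538) and Igfbp2 (34, 21, 31 and 22 against 23, 35 and 29) overlapped too.

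**Figure D2:**
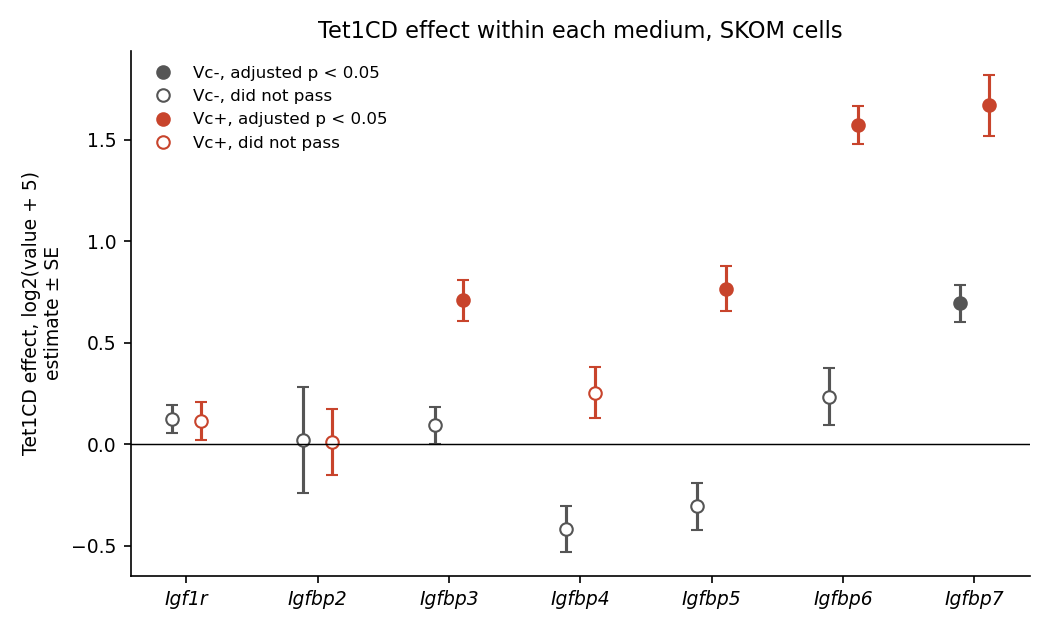
Tet1CD effect on log2(value + 5) for the 7 genes listed in SKOM cells, fitted in each medium alone. Points are limma estimates from fits of 7 libraries (3 with Tet1CD, 4 without). Of these, the shp53+shDnmt1 library is taken up by the shp53 term and does not enter the Tet1CD estimate. Bars are ± SE, and filled points passed an adjusted p under 0.05. Filled Vc+ points stand at 0.71 (Igfbp3), 0.77 (Igfbp5), 1.57 (Igfbp6) and 1.67 (Igfbp7), and the filled Vc- point is Igfbp7 at 0.69.

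The difference of the Tet1CD effect between the media was tested as an interaction, in which each effect is a contrast within its own table. It was positive, meaning more upward with vitamin C, for 5 of the 7 genes and negative for none, where 8.57% of 10711 genes were called positive and 8.28% negative (limma). The difference was 1.34 ± 0.18 for Igfbp6 (adjusted p = 0.00251), 1.07 ± 0.16 for Igfbp5 (adjusted p = 0.00317) and 0.98 ± 0.19 for Igfbp7 (adjusted p = 0.0107). It was 0.67 ± 0.18 for Igfbp4 (adjusted p = 0.034), which did not pass within either medium, and 0.61 ± 0.15 for Igfbp3 (adjusted p = 0.0219). Igf1r (-0.01 ± 0.12) and Igfbp2 (-0.01 ± 0.32) did not pass. The calls of Igfbp6 and Igfbp5 held without each library in turn, though leaving out a shp53+shDnmt1 library cannot change the estimate. The call of Igfbp7 was lost without the Vc- control or Vc- Tet1CD (0.89 each) and without Vc- shDnmt1 or Vc- Tet1CD+shDnmt1 (0.93 each). That of Igfbp3 was lost without those same libraries (0.50 each for the first pair, 0.61 each for the second) and without the Vc+ library labelled Dnmt1 or Vc+ Tet1CD+Dnmt1 (0.51 each). That of Igfbp4 was lost without those 6 (0.52, 0.72 and 0.55 by pair), without Vc+ shDnmt1 or Vc+ Tet1CD+shDnmt1 (0.64 each), and in limma without the intensity trend. In the same interaction test 4 of 11 fibroblast markers were positive and 0 negative (median 0.45 against -0.05 over all genes). Of 5 epithelial markers, 0 were positive and 2 negative. The shares over all genes were the 8.57% and 8.28% given above. The Vc+ macrophage and muscle marker sums moved in the same libraries, as given above. The part of these markers was not tested.

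Genes for enzymes that cut the binding proteins moved in the same libraries. Of 7 measured genes of IGFBP proteases and their inhibitors, 5 rose with Tet1CD in the additive model and none fell, where 20.3% of all genes rose and 24.9% fell (median 0.69 against -0.04 over all genes). Htra1, a secreted serine protease, rose by 1.60 ± 0.17 (adjusted p = 0.000119), Htra3, of the same family, by 1.12 ± 0.19, the lysosomal protease Ctsd by 0.75 ± 0.09 and Pappa, which encodes PAPP-A, by 0.69 ± 0.23. In Vc+ cells 6 of 7 rose, where 20.7% of all genes did (median 0.99 against -0.07), Htra1 by 2.09 ± 0.11, Htra3 by 1.49 ± 0.18, Pappa by 1.33 ± 0.11 and Ctsd by 0.99 ± 0.08; in Vc- cells 2 of 7 rose, where 7.25% of all genes did, Htra1 by 1.12 ± 0.14 and Ctsd by 0.51 ± 0.06. Htra1 stood at 107 to 176 where Tet1CD was absent in Vc+ cells and at 582 to 658 where it was present. Pappa stood at 52 to 102 and at 202 to 252 in those groups, and at 70 to 88 and 84 to 87 in Vc- cells, where they overlap. Its Tet1CD effect differed between the media by 1.26 ± 0.15 (adjusted p = 0.00142). Ctsd is also abundant in macrophages.

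The CCN family, matrix-associated proteins with an IGFBP-like domain, had 4 of 4 measured genes up in the additive model, where 20.3% of all genes rose (median 0.77 against -0.04), with Ctgf at 0.79 ± 0.11, Wisp2 at 0.77 ± 0.15, Wisp1 at 0.76 ± 0.13 and Cyr61 at 0.53 ± 0.14. In Vc+ cells 4 of 5 rose against 20.7% of all genes (median 0.97 against -0.07), from 0.85 ± 0.09 (Cyr61) to 1.07 ± 0.12 (Wisp1), and in Vc- cells 2 of 4 did against 7.25% (median 0.51 against -0.01), Ctgf at 0.60 ± 0.06 and Wisp1 at 0.45 ± 0.09. Among the other ligands and receptors, 3 of 9 genes were measured. Igf2r, the receptor that clears IGF2, rose by 0.36 ± 0.07 (adjusted p = 0.00157), from 1886 to 2196 up to 2644 to 2950 in Vc+ cells. Igf2, the ligand abundant in embryonic fibroblasts, did not pass in the additive model (0.35 ± 0.15, adjusted p = 0.0636) but rose in Vc+ cells by 0.74 ± 0.13 (adjusted p = 0.00655), with 662 to 1054 without and 1366 to 1693 with Tet1CD. In Vc- cells it had 868 to 1187 without and 1003 to 1111 with Tet1CD, which overlap.

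Most genes of the signalling steps below the receptor did not pass the test. Of 17 adaptors and PI3K pathway genes, 5 rose and 1 fell with Tet1CD in the additive model, where 20.3% of all genes rose and 24.9% fell (median 0.09 against -0.04). Grb14, an adaptor that inhibits insulin receptor signalling, rose by 0.69 ± 0.15, the insulin receptor substrate Irs1 by 0.44 ± 0.17 and the adaptor Shc1 by 0.32 ± 0.06, while the imprinted adaptor Grb10, another inhibitor, fell by 0.50 (SE 0.18, adjusted p = 0.0429). In Vc+ cells 6 of 18 rose and 1 fell, where 20.7% and 23.6% of all genes did, among them Inpp5d (2.85 ± 0.23), a lipid phosphatase of blood cells listed in Vc+ and not in Vc- cells, Grb14 (1.12 ± 0.08) and Grb10 (-1.07 ± 0.08). In Vc- cells 1 of 17 rose, Shc1 (0.34 ± 0.09), and 1 fell, Gab1 (-0.60 ± 0.08), where 7.25% and 7.38% of all genes did. Of 17 genes of the AKT, mTOR and FOXO steps, 1 rose and 2 fell in the additive model (median -0.03 against -0.04), fewer in each direction than the shares over all genes. These were Tsc2 at 0.18 ± 0.06, Foxo4 at -1.14 ± 0.21 and Akt2 at -0.30 ± 0.06. In Vc+ cells 3 of 17 fell, where 23.6% of all genes did, namely Foxo4 (-1.79 ± 0.09), Akt2 (-0.39 ± 0.09) and Akt1 (-0.28 ± 0.08). In Vc- cells 1 of 17 fell, where 7.38% of all genes did, namely Foxo4 (-0.50 ± 0.13). None of the 3 Igf2bp genes, which encode proteins that bind IGF2 mRNA, passed in either medium or in the additive model.

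The p53 hairpin went with lower Igfbp7. In MEFs, Igfbp7 was 1546 with shp53 against 3991 in the control, 2.58-fold lower, and 2195 with shp53+shDnmt1 against 5063 with shDnmt1, 2.30-fold lower. It is the only member past 2-fold in both of these pairs, which share no library, where 1.76% of 9928 MEF genes with a mean of at least 50 were lower and 1.58% higher. In SKOM cells the hairpin came only with shDnmt1, and Igfbp7 was 242 against 506 with shDnmt1 in Vc- cells and 270 against 416 in Vc+ cells, so it was lower in 4 of 4 pairs. Igfbp3, a known p53 target gene, was also lower in 4 of 4 pairs: 235 against 368 and 137 against 381 in MEFs, 1719 against 2297 in Vc- and 1328 against 2044 in Vc+ cells. Igfbp5 was lower in 4 of 4 as well, with 306 against 567, 402 against 659, 44 against 75 and 57 against 78. Igfbp2 was lower in MEFs (43 against 130 and 67 against 117) and in Vc- cells (22 against 31), and higher in Vc+ cells (57 against 43). Igf1r, Igfbp4 and Igfbp6 were higher in some pairs and lower in others. Thus 3 of 7 members were lower in 4 of 4 pairs and 0 were higher, where 21.2% of 9561 genes listed in all tables were lower in all 4 pairs and 21.5% were higher.

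The additive SKOM model did not call any of these. The shp53 effect was -0.70 ± 0.27 for Igfbp7 (limma adjusted p = 0.418), -0.56 ± 0.28 for Igfbp5 (adjusted p = 0.505) and -0.50 ± 0.21 for Igfbp3 (adjusted p = 0.439), with 2 of 7 members at an unadjusted p under 0.05 (Igfbp3 and Igfbp7) and 0.00934% of 10711 genes called. This effect rests on 1 library per medium. The fibroblast marker sum was also lowest in the MEF library with shp53 (94557) and next lowest with shp53+shDnmt1 (107169). It was 125713 to 134790 in the other MEF libraries without the 5C library. Much of the fall was Col1a2, at 15125 and 19849 in these 2 libraries against 38803 in the control. By gene, the median log2 ratio of the 12 markers was -0.13 and -0.07 in the 2 MEF pairs, against 0.0 and -0.01 over all genes. The part of these markers in the values of the members was not tested.

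**Figure D3:**
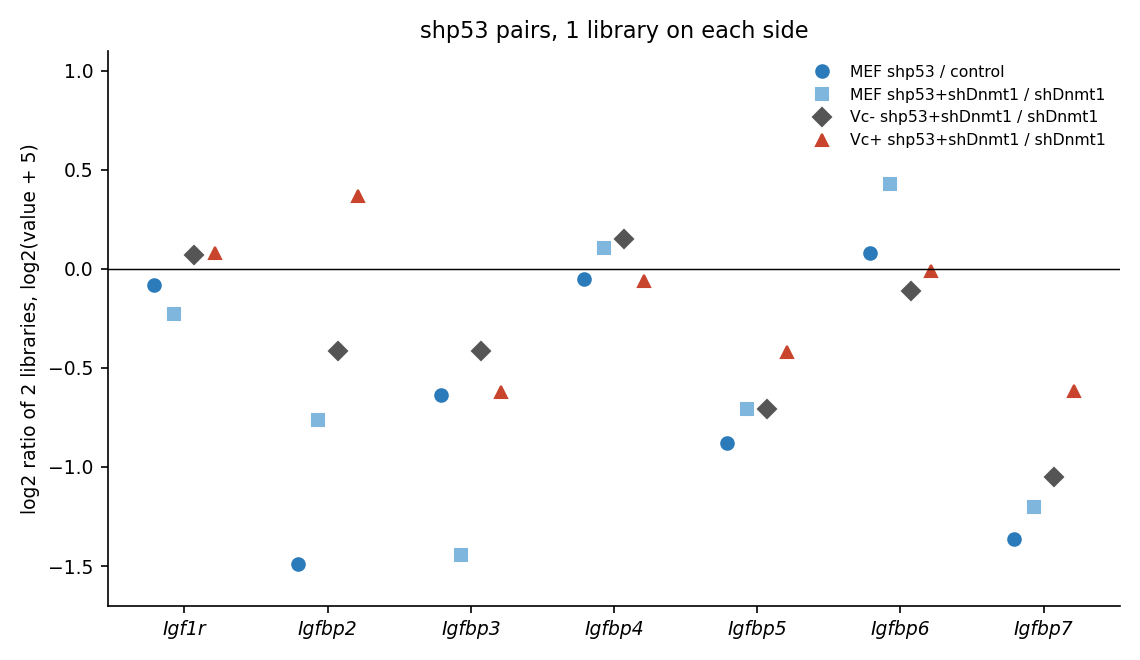
Log2 ratio of 2 libraries, with shp53 over without it, for 7 genes in 4 pairs (2 MEF pairs, 1 Vc- and 1 Vc+ pair); each point is a single pair of libraries on the log2(value + 5) scale, with no error. All 4 points lie below 0 for Igfbp3, Igfbp5 and Igfbp7.

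Neither the Dnmt1 hairpin nor the label Dnmt1 gave a called member. No member was called for shDnmt1 in SKOM cells (0.0187% of 10711 genes called by limma), and 1 of 7 had an unadjusted p under 0.05, Igfbp4 at -0.37 ± 0.17 (adjusted p = 1). No member passed for the difference of the shDnmt1 effect between media (0% of genes called), with 0 of 7 at an unadjusted p under 0.05. For the label Dnmt1 the counts were again 0 of 7, with 0% of genes called and 0 of 7 at an unadjusted p under 0.05. In MEFs no member was past 2-fold in both shDnmt1 pairs (0.0403% of genes were higher and 0.0403% lower) or in the library labelled Dnmt1 (0.242% higher, 0.212% lower). Igfbp6 was 234 with shDnmt1 against 150 in the control and 317 with shp53+shDnmt1 against 159 with shp53. The second of these ratios, 1.96-fold, was the nearest to 2-fold in its pair, and Igf1 (46 against 26, 1.65-fold) was the nearest in the first.

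In MEFs, Tet1-CD was sequenced in 1 library and has no replicate check. Igfbp7 was 8045 against 3991 in the control, 2.01-fold higher, and 3991 to 5063 in the other MEF libraries without shp53. Igfbp6 was 341 against 150, 2.23-fold higher, though the shp53+shDnmt1 library reached 317. Igfbp3 was 175 against 368, 2.07-fold lower, which is the direction opposite to that in Vc+ SKOM cells. The shp53+shDnmt1 library, without Tet1-CD, was lower still at 137. Between the Tet1-CD library and the control, 1.56% of 9928 genes were at least 2-fold higher and 1.49% lower. Igf1r (701 against 715), Igfbp2 (151 against 130), Igfbp4 (536 against 368), Igfbp5 (506 against 567) and Igf1 (43 against 26) were not past 2-fold. Macrophage markers (5 of 10 listed) summed to 1382 in this library, 228 in the control and 100 to 983 over the MEF libraries without Tet1-CD and 5C, and their part was not tested. Of the related genes, Htra1 was higher (1791 against 838, 2.13-fold), and Grb10 (2796 against 6713) and Irs2 (29 against 72) were lower.

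SKOM cells differed from MEFs most in Igfbp3, which was higher, and in Igfbp7 and Igfbp5, which were lower. The tables were normalized separately, so each library was compared with the MEF library of the same construct, in 5 pairs, and each pair's log2 ratios were centred on the pair's median gene, with no test. The medians before centring were -0.27 to -0.30 for Vc- and 0.24 to 0.31 for Vc+ cells. A gene was called where all 5 pairs pointed 1 way and the median reached 2-fold. Igfbp3 was 8.25-fold higher in Vc- cells (log2 ratios 2.70 to 3.96) and 5.45-fold higher in Vc+ cells (2.00 to 4.14), the single member called higher, where 6.02% and 6.72% of genes were. In the controls its value was 368 in MEFs, 2542 in Vc- and 2501 in Vc+ cells. Igfbp7 was 8.21-fold and 11.1-fold lower, Igfbp5 was 6.76-fold and 7.42-fold lower, and Igfbp2, abundant in fetal tissues, was 2.86-fold and 3.54-fold lower. Igfbp4 was 2.75-fold lower in Vc- cells and 1.76-fold lower in Vc+ cells, below the limit for a call in the latter. This gives 4 of 7 lower in Vc- cells, where 7.46% of genes were, and 3 of 7 in Vc+ cells, where 10.8% were. Igf1r and Igfbp6 were not called, with median log2 ratios of -0.11 and -0.21 in Vc- and of -0.39 and -0.21 in Vc+ cells. Without centring, Igfbp4 was lower in 4 of 5 Vc+ pairs and the Vc+ median of Igfbp6 was on the higher side, at 0.10. Igf2 was lower too (6.94-fold and 12.3-fold), as were Adam12 (median log2 ratios of -3.25 and -3.81), Pappa (6.27-fold and 9.40-fold) and Htra1 (5.46-fold and 6.90-fold), whereas Stc2, an inhibitor of PAPP-A, was 4.86-fold and 3.48-fold higher. Fibroblast marker sums were 41731 to 49582 in Vc- and 39237 to 63548 in Vc+ cells against 94557 to 134790 in MEFs, on scales that differ between tables. Their part was not tested.

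**Figure D4:**
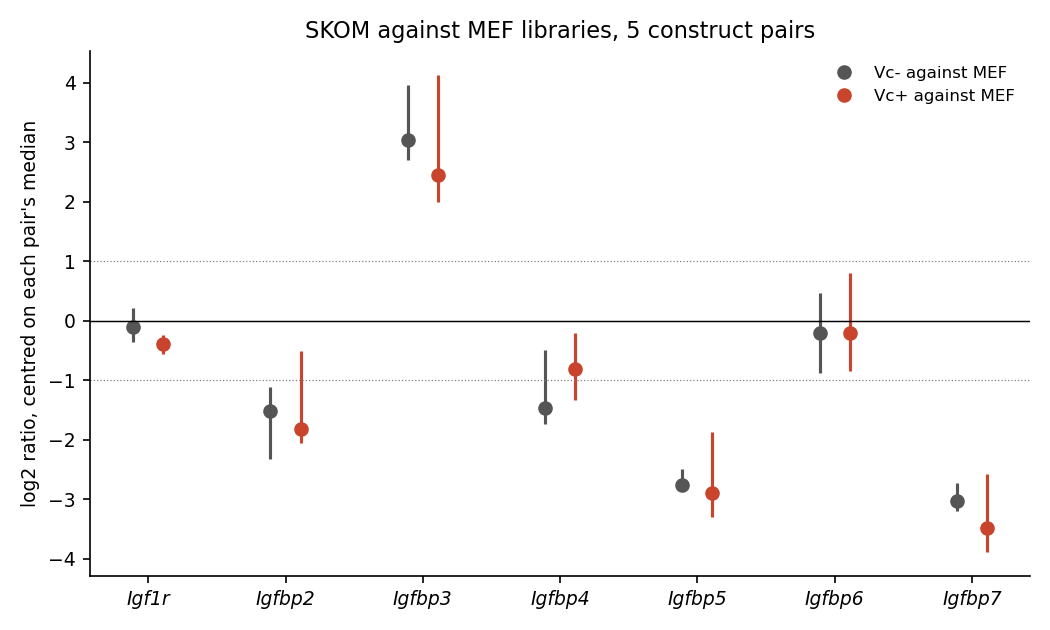
Log2 ratio of SKOM over MEF libraries with the same construct, centred on each pair's median gene, for 7 genes in Vc- and Vc+ cells; points are medians of 5 pairs, lines run from the lowest to the highest pair, and dotted lines mark 2-fold. Igfbp3 lies above the upper line in every pair, and Igfbp5 and Igfbp7 lie below the lower line in every pair.

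Between Vc+ and Vc- cells no member had a consistent 2-fold difference over the 7 construct pairs, 3 of which carry Tet1CD. By that rule 0.392% of 10711 genes were higher and 0.215% lower. The medians before centring were 0.52 to 0.57. Igfbp4 was higher with vitamin C in 7 of 7 pairs, with a median log2 ratio of 0.36 (0.02 to 1.05). Because the medians subtracted are positive, any gene higher in all pairs after centring is also higher without it, Igfbp4 included. Its values were 215, 178, 140, 156, 128, 154 and 111 without and 393, 270, 271, 259, 381, 381 and 339 with vitamin C, in the order control, Dnmt1, shDnmt1, shp53+shDnmt1, Tet1CD, Tet1CD+Dnmt1 and Tet1CD+shDnmt1. Igf1r was lower in 7 of 7 pairs after centring (median -0.14) and higher in 7 of 7 without it (median 0.38), so its direction depends on the scaling. Igfbp3 was lower in 6 of 7 pairs after centring (median -0.59) and in 4 of 7 without. Igfbp2, Igfbp5, Igfbp6 and Igfbp7 were higher in some pairs and lower in others after centring, and the first 3 of them were higher in 7 of 7 pairs without it. For Igfbp5 and Igfbp6 the 3 higher pairs are those with Tet1CD. The ratio of Igfbp4 was also largest in those 3 pairs, and its Tet1CD effect differed between the media by 0.67 ± 0.18, as given above.

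The 5C library stood apart from the other MEF libraries in nearly every member. Igf1 was 827 in it against 23 to 46 in the other 6 libraries. As a ratio of value + 5, it was 26.8-fold higher than the 26 of the control. Igf1 passed the limit of a mean of at least 50 used for MEF ratios through this library, with a mean of 147.7 over 7 libraries and 34.5 without it. Igf1r moved the opposite way, at 95 against 598 to 716 (7.20-fold lower than the control). Igfbp4 was 6113 against 355 to 540, or 16.4-fold higher, Igfbp3 was 2852 against 137 to 391 (7.66-fold), Igfbp2 was 584 against 43 to 152 (4.36-fold) and Igfbp5 was 1928 against 306 to 659 (3.38-fold). Igfbp7 was 1439, 2.77-fold below the control and just under the 1546 of the shp53 library, and Igfbp6, at 241, lay within the 150 to 341 of the others. This makes 5 of 8 members at least 2-fold higher and 2 of 8 lower than the control, where 20.0% of 9928 genes were higher and 27.4% lower. Because Igf1 entered through the library in which it is high, the count was repeated, by a choice made after seeing the data, with the mean taken over the other 6 libraries, which leaves Igf1 out: 4 of 7 members were then higher and 2 of 7 lower, where 17.8% of 9730 genes were higher and 28.7% lower. The pair's median gene had a log2 ratio of -0.15.

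In the same library Igf2 was 15100 against 6696 to 10838. Igf2r was 1321 against 5203 in the control, Ctgf 539 against 12464 and Adam12 118 against 1216, while the protease Htra3 was 366 against 17. Irs2 was listed at 0 there, against 72. The summed macrophage markers reached 4621 (Lyz2 2964, Cd68 956, Laptm5 439, Ptprc 151, Csf1r 111) against 228 in the control and up to 1382 in the others. The fibroblast sum reached 165176 against 94557 to 134790. By gene, 4 of 12 fibroblast markers were at least 2-fold higher than in the control and 0 lower, where 20.0% and 27.4% of 9928 genes were. Their median log2 ratio was -0.06, against -0.15 over all genes. Whether the macrophage or fibroblast markers bear on the Igf1 value was not tested.

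Over the 14 SKOM libraries, after subtraction of each medium's mean, 4 members varied together. The points share libraries, normalization and the Tet1CD groups, and the correlations are descriptions. Pearson's r was 0.92 between Igfbp3 and Igfbp7, 0.91 between Igfbp3 and Igfbp5, 0.88 between Igfbp6 and Igfbp7, 0.84 between Igfbp3 and Igfbp6, 0.82 between Igfbp5 and Igfbp7 and 0.79 between Igfbp5 and Igfbp6. Igf1r had r between -0.20 and 0.47 with the other members and Igfbp2 between -0.20 and 0.04. Igfbp4 lay between, with r of 0.57 with Igfbp5, 0.52 with Igfbp3, 0.37 with Igfbp6, 0.24 with Igfbp7 and -0.06 with Igf1r. The neighbours Igfbp2 and Igfbp5 had r = -0.09. Among 9556 genes with a mean of at least 50, the pattern of Igfbp7 was most like Loxl2, Serpinb9b and Phldb2 (r = 0.99 each), that of Igfbp3 most like the fibroblast surface marker Thy1, Abhd4 and the thrombospondin Thbs2 (0.99 each), that of Igfbp5 most like Abcb1b, Thbd and Celf5 (0.98, 0.97 and 0.96) and that of Igfbp6 most like Cdk14, Ptpn13 and Cdc42ep1 (0.98 each). Igf1r was closest to Hspg2, the gene for the proteoglycan perlecan (0.95), Ano8 and Phactr4, Igfbp4 to Zfp618 (0.89), Aqp1 and Tacc1, and Igfbp2 to Sqle (0.78), Ndufa2 and Xylt2, ranked among 9557 genes because Igfbp2 itself has a mean under 50.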

How the data were processed

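RNA of 21 libraries was prepared with a TruSeq kit, per the labels' protocols. Bowtie, RSEM and mm10 appear in the submitters' processing notes. The authors deposited scores: whole numbers already normalized within each of 3 tables by a method not given in the sources used here, so no depth or counting error could be given. Genes averaging 10 or more were analysed as log2(value + 5) in limma 3.58.1 (R 4.3.3; moderated variances with a trend on intensity), with Benjamini-Hochberg adjustment over all genes and a threshold of 0.05. Residual degrees of freedom were 8 in the additive model, 4 with the interaction and 2 within a medium. In the last 2 of these the shp53 term fits its 1 library per medium exactly, so that library does not enter the Tet1CD estimate. In simulated data with the same Tet1CD changes planted in both media, the additive fit recovered known changes. No difference between media was planted, so recovery of such a difference was not checked. Ratios between tables and within MEFs (genes averaging 50 or more) carry no test. Exons came from GENCODE M21 and promoters from RefSeq (GRCm38.p6), and all 8 genes matched. Beyond the members, the text names from each related list and comparison at most 4 called genes, those that changed most (where none was called, at most 2, by p), and the 3 genes most correlated with each member. Genes and lists were chosen with earlier results of these data known. Alternatives were pseudocounts of 1 and 32, other filters, variance models and scalings, and each library left out.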

Additional observations from a re-analysis of the deposited data

Results flagged for a closer look

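The response to Tet1CD differed between medium with and without vitamin C, by the limma interaction test, for 5 IGF genes: Igfbp6 (1.34, Vc+ minus Vc- on the log2 scale), Igfbp5 (1.07), Igfbp7 (0.98), Igfbp4 (0.67) and Igfbp3 (0.61). Of the related genes it differed upward for the proteases Pappa (1.26), Htra1 (0.97), Adam12 (0.82) and Ctsd (0.48), the PAPP-A inhibitor Stc1 (0.97), the ligand Igf2 (0.77), the CCN genes Cyr61 (0.64) and Wisp1 (0.62), and the adaptors Gab1 (1.0), Irs1 (0.91) and Grb14 (0.85). It differed downward for the transcription factor Foxo4 (-1.29) and the adaptor Grb10 (-1.14). Each group of constructs had 1 library, so no sample could be compared with others of its group.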

How the results depend on the processing

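No fit with a replicate block was possible because the labels carry no replicate numbers; libraries were paired by construct only, as described. Of 486 values of single members for Tet1CD under the alternatives, 28 lost their call and 4 gained one, none with a reversed direction, and 25 changed the sign of a value that passed in neither. For Tet1CD in Vc- cells, the count of members was 2 in place of 1 with genes of a mean of at least 50 and without the Dnmt1 term, 0 to 2 with each library left out, and all genes called fell from 1568 to 304 without the intensity trend (5 to 2353 with a library left out). With a library left out, all genes called numbered 2231 to 5450 in Vc+ cells, 761 to 2315 for the difference between media (2 to 5 of 7 members), 0 to 3 for shDnmt1, 1 to 5 for shp53 and 0 to 59 for the shDnmt1 difference. For shp53 the count of 1 became 2 without the trend or with a mean of at least 50, 3 with median-of-ratios rescaling and 7 without the Dnmt1 term. The cause was not tested, though a fit with a library left out also has fewer residual degrees of freedom. Between tables, Igfbp5 in Vc- cells against MEFs had -2.28 with a pseudocount of 32 and -3.05 without centring, and Igfbp7 -3.31 without centring, all still lower.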
